A study of Mus musculus with 10 samples.

Results

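Lysosomes are acidic compartments in which soluble hydrolases break down glycans, lipids and proteins that arrive by endocytosis, phagocytosis and autophagy. Heavily glycosylated membrane proteins line the compartment, a proton pump acidifies it, and channels and carriers export the products. Phagocytes are rich in lysosomes, and inherited loss of lysosomal proteins such as acid alpha-glucosidase or LAMP-2 causes cardiomyopathy in people. Transcription factors of the MiT/TFE family, with TFEB as the best studied, bind an E-box named CLEAR near the start sites of many lysosomal genes.

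The genes described here are 39 lysosomal hydrolases, membrane proteins and their transcription factors, chosen by gene symbol from the 40690 genes of a deposited count table, and all 39 symbols were found. They were measured as polyadenylated RNA in ventricles of 10 male C57BL/6 mice aged 10 weeks, for which the labels give no genetic change. The 5 sham mice had undergone the sham surgery of an ischemia-reperfusion model, and the 5 naive mice were the unoperated control. The comparison asks which lysosomal transcripts differ after that surgery. The sources used here do not give the time between surgery and tissue collection. Sham libraries held 10654107 to 21537135 counted reads and naive libraries 9683181 to 17577906, so that 3 counts correspond to 0.139 CPM (counts scaled to a common library total) in the deepest library and 0.310 CPM in the shallowest. Values below are CPM after TMM normalisation, which scales libraries so that most genes are level.

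Cardiomyocyte markers summed to 61501 to 71527 CPM in sham and 82579 to 89708 CPM in naive libraries, and 9 of these 10 were lower in sham, with a median log2 fold change of -0.39. Of 4 atrial markers, Sln was at 0 in all naive libraries and had 1 count in sham 4, and Myl7 reached 3.30 CPM in sham and 1.31 CPM in naive libraries at most. Myl4 did not pass (0.53 ± 0.24), and Nppa, the natriuretic peptide of atria and of stressed ventricle, was higher, with 36.9 to 131 CPM in sham and 38.1 to 53.7 CPM in naive libraries (0.87 ± 0.27). Of 15 macrophage markers 14 were higher in sham, with a median log2 fold change of 1.59. Their summed level was 1402 to 1725 CPM in sham and 459 to 551 CPM in naive libraries, and none was at 0 throughout either group. Of 8 fibroblast markers 6 were higher, with sums of 7941 to 12919 CPM in sham and 2164 to 2689 CPM in naive libraries. Col1a1 made most of the difference between these sums, since the other 7 summed to 1660.2 to 2024 CPM in sham and 1623 to 1930.2 CPM in naive libraries. Most of that remaining sum was Gsn, at 1491 ± 184 CPM in sham and 1652 ± 158 CPM in naive libraries (SD, n = 5). Gsn and Dcn did not pass. Pdgfrl, Lum, Dpt, Tcf21 and Pdgfra were higher, with log2 fold changes of 2.25, 1.34, 1.24, 0.68 and 0.56. Lymphocyte markers summed to 2.22 to 3.35 CPM in sham and 0.869 to 2.27 CPM in naive libraries. Of 4 neutrophil markers 2 were tested and both were higher (S100a9 at 2.07 ± 0.73 and Csf3r at 2.77 ± 0.24), with sums of 14.4 to 31.3 CPM in sham and 1.74 to 4.74 CPM in naive libraries. Whole tissue was sequenced, so more cells of a type and more RNA per cell cannot be told apart for any gene below.

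Of the 39 genes, 38 had enough reads to be tested; only Tfec did not. In sham ventricles 20 of the 38 were higher, 1 was lower and 17 did not pass (quasi-likelihood F test of edgeR, adjusted over all 13622 tested genes, at a limit of 0.05). Higher or lower calls were made for 32.7% of all tested genes. Of the lysosomal genes 52.6% were higher and 2.63% lower, against 17.2% and 15.5% of all tested genes. The median log2 fold change was 0.36 over the tested lysosomal genes and -0.05 over all tested genes. The higher genes spanned 1.28-fold to 13.4-fold with a median of 1.70-fold. A fitted increase of at least 2-fold was seen in 8 of them (Gpnmb, Laptm5, Cd68, Tcirg1, Npc2, Lgmn, Grn and Gla), and 7.30% of all tested genes reached that size. That is 40% of the higher lysosomal genes, close to the 42.4% of all higher genes. In 18 of the 20 the lowest sham library exceeded the highest naive library, as in 13.6% of all tested genes and 76.9% of all higher genes. Sham 4 stood apart from the other sham libraries in its counts (chi-square per degree of freedom of 68.2 to 86.9, against 10.2 to 22.4 among the others), and naive 1 lay at one end of the second principal component. Without both, 21 lysosomal genes were higher and 1 lower. With scaling by library size alone, which moved the median of all genes by 0.26, 25 were higher and 0 lower.

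**Figure D1:**
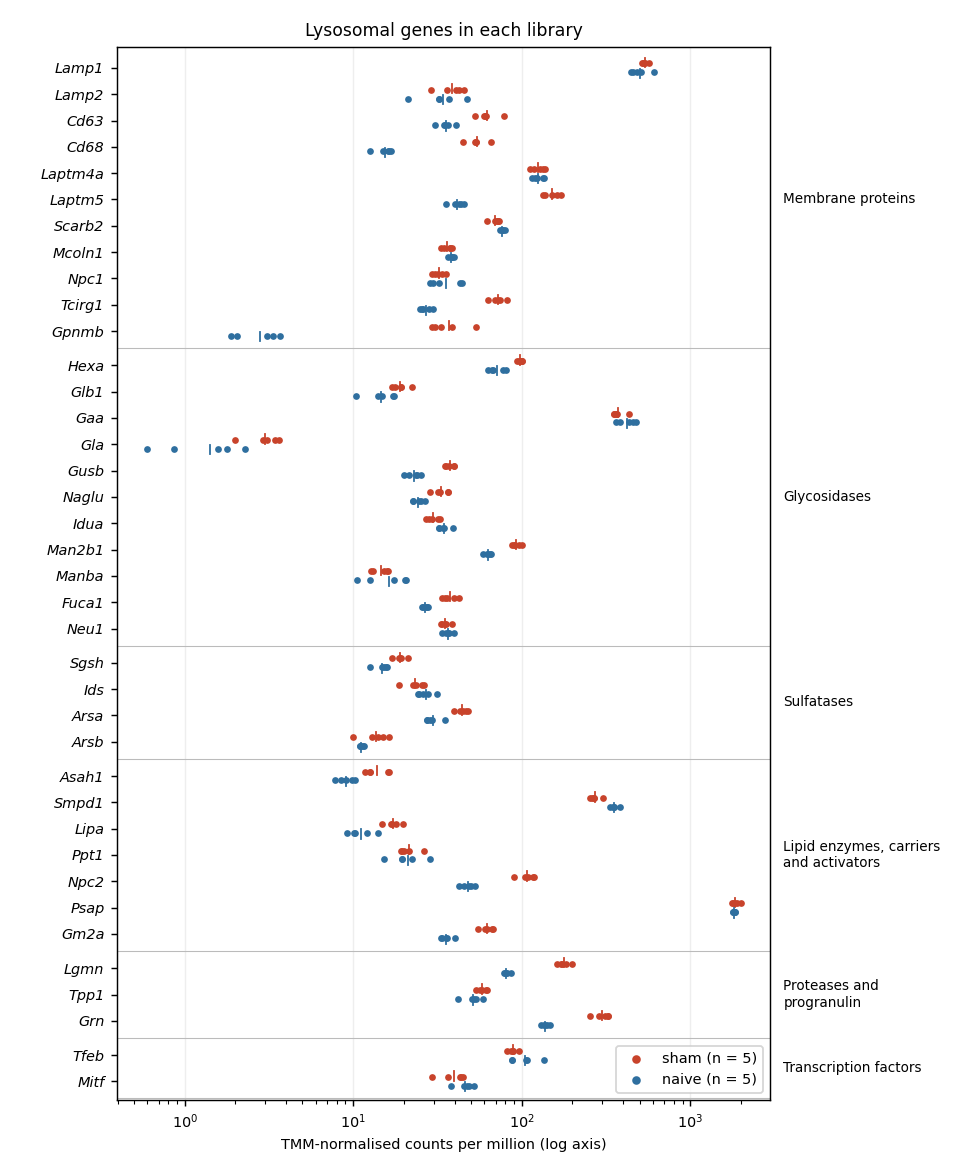
TMM-normalised CPM (log axis) of the 38 tested lysosomal genes in each library, grouped by role, with sham points above naive points for each gene and a tick at each group mean. Gpnmb, Laptm5, Cd68, Tcirg1, Npc2, Lgmn and Grn show sham points clear of the naive points, whereas those of Psap, Lamp1 and Laptm4a overlap.

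Among the membrane proteins, 5 of 11 were higher in sham, 0 lower and 6 did not pass. The widest change was in Gpnmb, a transmembrane glycoprotein of phagocyte and pigment cell lysosomes (chromosome 6, 49036546 to 49070929, plus strand, GRCm38). Gpnmb stood at 38.5, 53.9, 33.4, 30.4 and 29.3 CPM in sham 1 to 5, against 3.69, 3.32, 2.05, 3.06 and 1.89 CPM in naive 1 to 5. Its lowest sham library was several times its highest naive library. The log2 fold change was 3.74 ± 0.21 (SE, edgeR adjusted p = 7.76e-09), rank 27 of all 13622 tested genes.

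Laptm5, a lysosomal membrane protein of blood-derived cells (chromosome 4, 130913125 to 130936141, plus strand), had 134, 152, 162, 138 and 172 CPM in sham 1 to 5, against 43.7, 35.6, 40.2, 45.5 and 42.4 CPM in naive 1 to 5. The change was 1.87 ± 0.10 on the log2 scale (edgeR adjusted p = 2.62e-09). Its relative Laptm4a, which is found in most tissues, did not separate the groups, with 125 ± 10.5 CPM in sham and 125 ± 8.68 CPM in naive libraries (SD, n = 5) and a log2 fold change of 0.00 ± 0.08. With library size alone it was called higher (0.27, edgeR adjusted p = 0.0194). Cd68, the macrophage member of the LAMP family (chromosome 11, 69664213 to 69666153, minus strand), had 45.0, 65.8, 52.5, 53.3 and 53.3 CPM in sham 1 to 5, against 16.1, 12.6, 16.7, 15.1 and 16.4 CPM in naive 1 to 5. All sham values exceeded all naive values, and the log2 fold change was 1.81 ± 0.11. The widely expressed LAMP proteins did not pass: Lamp1 averaged 536 ± 21 CPM in sham and 502 ± 65.3 CPM in naive libraries, and Lamp2 averaged 38.6 ± 6.39 CPM in sham and 34.0 ± 9.48 CPM in naive libraries (SD, n = 5). Lamp1 was called higher without naive 1 and sham 4 (0.21, edgeR adjusted p = 0.0247) and with library size alone (0.37, edgeR adjusted p = 0.00443), and the log2 fold change of Lamp2 ran from 0.06 to 0.33 with 1 library left out.

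Tcirg1 encodes the a3 subunit of the proton pump, best known from osteoclasts (chromosome 19, 3896050 to 3907133, minus strand). It had 63.2, 72.2, 81.8, 69.4 and 73.9 CPM in sham 1 to 5, against 28.1, 25.6, 25.0, 29.6 and 26.1 CPM in naive 1 to 5. The groups did not overlap and the log2 fold change was 1.43 ± 0.09. Cd63, a tetraspanin of late endosomes and secreted vesicles, rose by 0.82 ± 0.11 (edgeR adjusted p = 2.52e-05), with 52.6 to 78.1 CPM in sham and 30.7 to 40.5 CPM in naive libraries. Scarb2, the receptor that carries glucocerebrosidase to the lysosome, was below naive in all 5 sham libraries but did not pass (69.7 ± 4.49 CPM in sham, 76.9 ± 1.67 CPM in naive, adjusted p = 0.145 by edgeR). The calcium channel Mcoln1 and the cholesterol exporter Npc1 did not pass either, at -0.08 ± 0.08 and -0.15 ± 0.12. These last 3 log2 fold changes were positive with library size alone.

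**Figure D2:**
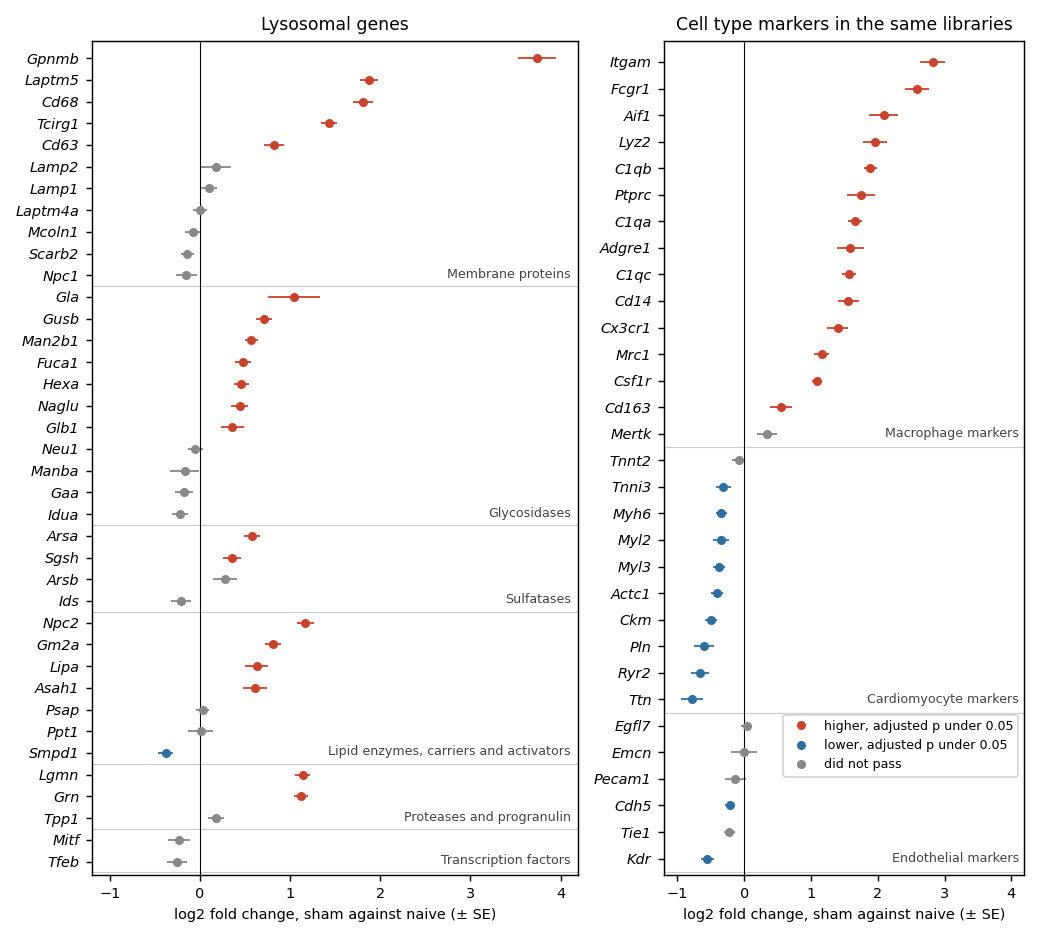
Log2 fold changes, sham against naive, with SE, for the tested lysosomal genes by role (left) and for macrophage, cardiomyocyte and endothelial markers in the same libraries (right). Gpnmb at 3.74 lies right of all 15 macrophage markers, whose values run from 0.34 to 2.82, Laptm5 and Cd68 lie within that range, and the cardiomyocyte markers lie between -0.78 and -0.08.

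Of the 11 glycosidases, which remove sugars from glycans and glycolipids, 7 were higher, 0 lower and 4 did not pass. Gusb, the beta-glucuronidase that trims glycosaminoglycans, had 35.4, 39.6, 37.1, 34.9 and 39.4 CPM in sham 1 to 5, against 23.8, 19.9, 21.4, 25.2 and 23.6 CPM in naive 1 to 5. The groups did not overlap, and Gusb rose by 0.71 ± 0.09 (edgeR adjusted p = 1.53e-05). The lysosomal alpha-mannosidase Man2b1 rose by 0.57 ± 0.07, the fucosidase Fuca1 by 0.48 ± 0.09, the beta-hexosaminidase alpha subunit Hexa by 0.46 ± 0.08 and Naglu, of heparan sulfate breakdown, by 0.44 ± 0.09. In each of these 4 all sham libraries exceeded all naive libraries.

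Gla, the alpha-galactosidase deficient in Fabry disease, was the least abundant tested gene of the set in sham libraries on a per-length scale. It had 1.99, 2.92, 3.09, 3.62 and 3.42 CPM in sham 1 to 5, against 0.595, 1.78, 0.869, 1.57 and 2.27 CPM in naive 1 to 5. The values of sham 1 and naive 5 overlap, and the log2 fold change was 1.04 ± 0.29 (edgeR adjusted p = 0.0107). Gla was also the only tested gene of the set that met the filter on low counts in fewer than all naive libraries (4 of 5). Glb1, the beta-galactosidase, was at 0.36 ± 0.13 with an edgeR adjusted p of 0.0455. That call was the least stable: it was lost without sham 1, 3, 4 or 5 and without naive 1, 2 or 3 (adjusted p of 0.0529 to 0.116, edgeR, over these, the GC correction and the removal of naive 1 and sham 4 together).

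Acid alpha-glucosidase (Gaa), which degrades lysosomal glycogen and is abundant in heart, was at 374 ± 35 CPM in sham and 422 ± 48.6 CPM in naive libraries and did not pass (-0.18 ± 0.10, adjusted p = 0.181 by edgeR). With a GC correction it was called lower (-0.26, edgeR adjusted p = 0.0140), as with limma voom (adjusted p = 0.0134), and with library size alone its sign was positive. The iduronidase Idua, at -0.22 ± 0.09, was also called lower with the GC correction (edgeR adjusted p = 0.0421) and was positive with library size alone. The beta-mannosidase Manba and the sialidase Neu1 did not pass, at -0.17 ± 0.16 and -0.05 ± 0.08, and both were positive with library size alone.

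Of the 4 sulfatases, Arsa and Sgsh were higher and Ids and Arsb did not pass. Arsa, which desulfates the lipid sulfatide, rose by 0.58 ± 0.09 (edgeR adjusted p = 1.54e-04), with 39.4 to 47.8 CPM in sham and 27.4 to 35.2 CPM in naive libraries. Sgsh, the heparan N-sulfatase, rose by 0.36 ± 0.10, with 17.1 to 21.2 CPM in sham and 12.6 to 15.9 CPM in naive libraries. Ids, which removes the sulfate from iduronate, was at -0.21 ± 0.11, and at 0.06 with library size alone, and Arsb, of dermatan sulfate breakdown, at 0.28 ± 0.13. Arsb was called higher without sham 4 (0.41, edgeR adjusted p = 0.00748), without naive 1 and sham 4 (edgeR adjusted p = 0.00931), with library size alone (edgeR adjusted p = 0.00425) and with limma voom (adjusted p = 0.0209). Libraries did not mark strand, and Sgsh and Arsb share 21.6% and 39.9% of their exon bases with genes on the other strand, so their reads cannot be told apart from those of these neighbours. Arsa and Hexa share 18.8% and 12.8% of their exon bases with a neighbour, and 29 of the 39 genes share none.

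Heparan sulfate is taken apart by several of these enzymes in sequence. Sgsh, Naglu and Gusb, which act on glucosamine and glucuronate, were higher, whereas Ids and Idua, which act on iduronate, did not pass. Within each library the ratio of Gusb to Idua counts per kilobase of exon, which no library scaling affects, was 1.17 ± 0.122 in sham and 0.613 ± 0.0612 in naive libraries (SD, n = 5). The lowest sham ratio, 1.03, was above the highest naive ratio, 0.682.

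Among lipid enzymes, carriers and activators, 4 of 7 were higher, 1 was lower and 2 did not pass. Npc2, a soluble protein that hands cholesterol to Npc1 (chromosome 12, 84754562 to 84773152, minus strand), had 89.7, 105, 116, 119 and 109 CPM in sham 1 to 5, against 42.4, 48.9, 52.6, 45.2 and 49.8 CPM in naive 1 to 5. Its log2 fold change was 1.17 ± 0.09 (edgeR adjusted p = 1.12e-07) and the groups were far apart. Gm2a, the activator that lifts GM2 ganglioside to hexosaminidase, had 54.8, 60.6, 66.4, 62.6 and 67.9 CPM in sham 1 to 5, against 40.3, 35.8, 33.8, 33.2 and 35.4 CPM in naive 1 to 5. It rose by 0.81 ± 0.09, beside the increase of Hexa, the enzyme subunit it serves.

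Lysosomal acid lipase (Lipa), which hydrolyses cholesteryl esters and triglycerides, rose by 0.63 ± 0.13 and the ceramidase Asah1 by 0.61 ± 0.13, each with all sham libraries above all naive libraries. The 1 gene that fell was Smpd1, the acid sphingomyelinase that makes ceramide (chromosome 7, 105554360 to 105558389, plus strand). Smpd1 had 305, 254, 268, 263 and 267 CPM in sham 1 to 5, against 381, 348, 354, 335 and 353 CPM in naive 1 to 5. All sham libraries were below all naive libraries, as in 9.18% of all tested genes, and the log2 fold change was -0.38 ± 0.08 (edgeR adjusted p = 0.00139). With library size alone it was -0.12 and did not pass (edgeR adjusted p = 0.304).

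Psap, the precursor of the saposins that present lipids to hydrolases (chromosome 10, 60277627 to 60302597, plus strand), was the most abundant of the 39 genes per kilobase of exon in both groups. It had 1989, 1899, 1798, 1764 and 1832 CPM in sham 1 to 5, against 1847, 1804, 1843, 1813 and 1789 CPM in naive 1 to 5, and the ranges overlap. Its log2 fold change of 0.03 ± 0.07 did not pass, but it did with library size alone (0.30, edgeR adjusted p = 0.00908), and it was -0.03 with the GC correction. Psap made up 35.3% to 38% of the counts of the 39 genes in sham and 39.2% to 41.9% in naive libraries. The thioesterase Ppt1, which removes palmitate from proteins, was at 0.01 ± 0.14.

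Legumain (Lgmn), an asparagine-specific protease that activates cathepsins, and progranulin (Grn), a secreted protein cut into granulins in the lysosome, were higher by similar amounts. Lgmn (chromosome 12, 102394084 to 102439813, minus strand) had 163, 199.5, 184, 172 and 174 CPM in sham 1 to 5, against 85.8, 78.3, 81.9, 80.8 and 79.3 CPM in naive 1 to 5 (log2 fold change 1.14 ± 0.08, edgeR adjusted p = 2.95e-08). Grn (chromosome 11, 102430315 to 102437048, plus strand) had 255, 323, 313, 286 and 323 CPM in sham 1 to 5, against 147, 142, 137, 136 and 131 CPM in naive 1 to 5 (1.12 ± 0.08, edgeR adjusted p = 8.12e-08). For both genes the naive libraries lay close together and the sham libraries were all above them. The tripeptidyl peptidase Tpp1 was at 0.18 ± 0.09 and did not pass, but it was called higher with library size alone (0.44, edgeR adjusted p = 0.0048) and with limma voom (adjusted p = 0.0173), and it ran from 0.11 to 0.24 with 1 library left out.

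Several of the higher genes work with a partner that did not pass the test or fell. The ratio of Npc2 to Npc1, in counts per kilobase of exon within a library, was 7.04 ± 1.10 in sham and 2.89 ± 0.582 in naive libraries (SD, n = 5). Grn over Psap, which bind each other on the way to the lysosome, was 0.128 ± 0.0156 in sham and 0.0601 ± 0.00218 in naive libraries. Tcirg1 over Atp6v0a1, alternative a subunits of the pump, was 0.614 ± 0.0844 in sham and 0.205 ± 0.0160 in naive libraries. Asah1 over Smpd1, which consume and make ceramide, was 0.0504 ± 0.00887 in sham and 0.0253 ± 0.00343 in naive libraries. For all 8 pairs plotted every sham ratio was above every naive ratio, and because the pairs were picked with the fold changes known this is a description only. A ratio shows unequal change of its genes, not that either was level.

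**Figure D3:**
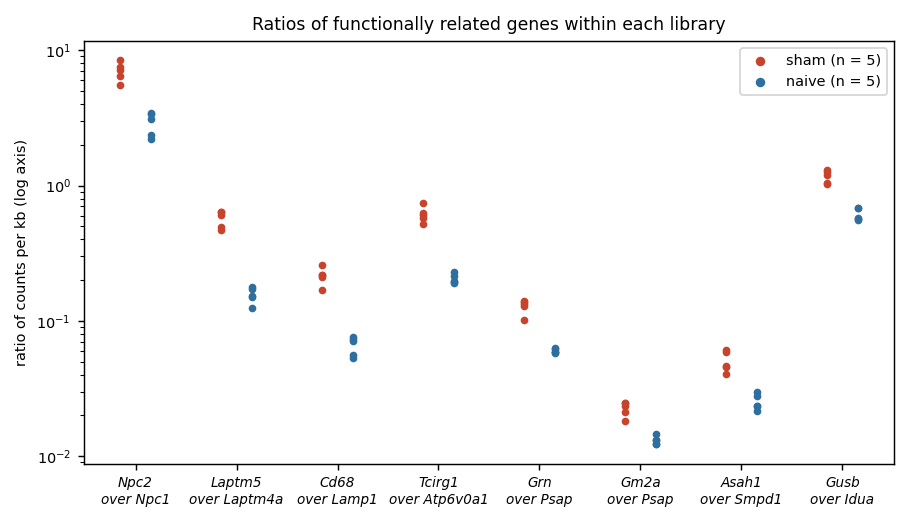
Ratio of counts per kilobase of exon (log axis) for 8 pairs of functionally related genes in each sham and naive library, where each point is a library. Every sham ratio lies above every naive ratio, for example 5.57 to 8.47 against 2.19 to 3.41 for Npc2 over Npc1.

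Neither of the tested transcription factors passed in the edgeR fit on group alone. Both were called lower with limma voom and with the replicate number as a block. Tfeb had 95.7, 89.1, 81.6, 88.8 and 86.2 CPM in sham 1 to 5, against 135, 106, 107, 88.1 and 88.1 CPM in naive 1 to 5. The groups overlap because of naive 4 and 5, and the log2 fold change of -0.25 ± 0.11 did not pass (adjusted p = 0.0971 by edgeR). It was called lower without naive 4 or without naive 5 (edgeR adjusted p = 0.0443 and 0.0428) and with the GC correction (edgeR adjusted p = 0.00858) or limma voom (adjusted p = 0.00755), and it was 0.03 with library size alone. Mitf was at -0.23 ± 0.12, with 29.4 to 44.8 CPM in sham and 37.9 to 51.8 CPM in naive libraries. It was called lower with limma voom (adjusted p = 0.0433) and was at 0.04 with library size alone.

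Tfec, a family member found mainly in myeloid cells, was too low to be tested. It had 3, 8, 6, 20 and 20 counts in sham 1 to 5, against 2, 0, 1, 2 and 3 counts in naive 1 to 5, or 57 against 8 in all. As CPM the groups did not overlap, but the nearest values, 0.260 CPM in sham 1 and 0.238 CPM in naive 1, rest on 3 and 2 counts. Without the filter on low counts it was tested and called higher (log2 fold change 2.26, edgeR adjusted p = 0.00307). Tfe3, the remaining relative, which belongs to the autophagy list below, rose by 0.40 ± 0.08.

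The E-box core CACGTG, which these factors bind, was searched for in RefSeq promoter windows of GRCm38.p6 that run from 250 bases before to 50 bases after a start. The motif reads the same on both strands, and 37 of the 39 genes (all but Npc1 and Asah1) matched the table, with 45 windows. It occurred in 9 windows (20%), each of a different gene, against 7.15% of all 32851 windows and 9.73% of the windows of tested genes. These genes were Lamp1, Mcoln1, Glb1, Gaa, Gla, Naglu, Sgsh, Arsa and Lgmn. Of the 9, 6 were higher in sham and 3 did not pass, and of the 28 genes without it 13 were higher, 1 was lower and 13 did not pass, with Tfec not tested. The related TCATGTG, read on both strands, was in windows of 5 genes (Scarb2, Gla, Ppt1, Tpp1 and Grn), or 11.1% of the 45. It was in 3.77% of all windows and 2.12% of the windows of tested genes. Of these 5 genes 2 were higher and 3 did not pass. Of the 32 genes without TCATGTG 17 were higher, 1 was lower and 13 did not pass, with Tfec not tested. The longer palindromic form of CLEAR, which adds fixed bases on both sides of CACGTG, was in 0 of the 45 windows, against 0.326% of all windows and 0.647% of the windows of tested genes. The 80 bases before the start are shown for the 7 genes with CACGTG in that stretch, because they set genes that differed between the groups beside genes that did not pass; capitals mark CACGTG and each line runs 5′ to 3′ on the gene's strand.
Lamp1, chr8:13159081-13159160, plus strand: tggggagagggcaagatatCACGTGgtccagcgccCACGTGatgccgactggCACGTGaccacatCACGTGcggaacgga
Mcoln1, chr8:3500439-3500518, plus strand: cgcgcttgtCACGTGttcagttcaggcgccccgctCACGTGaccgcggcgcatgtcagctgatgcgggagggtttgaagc
Lgmn, chr12:102439093-102439172, minus strand: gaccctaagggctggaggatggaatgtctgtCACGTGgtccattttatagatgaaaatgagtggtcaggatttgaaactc
Arsa, chr15:89477425-89477504, minus strand: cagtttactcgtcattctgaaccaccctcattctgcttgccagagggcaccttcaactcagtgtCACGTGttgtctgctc
Naglu, chr11:101070014-101070093, plus strand: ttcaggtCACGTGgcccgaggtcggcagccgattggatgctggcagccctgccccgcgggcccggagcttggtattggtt
Glb1, chr9:114400998-114401077, plus strand: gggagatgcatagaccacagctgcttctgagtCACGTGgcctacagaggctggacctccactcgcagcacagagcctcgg
Sgsh, chr11:119355511-119355590, minus strand: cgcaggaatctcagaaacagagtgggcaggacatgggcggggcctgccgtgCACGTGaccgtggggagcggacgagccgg

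Lamp1 held 4 copies and Mcoln1 2 copies, and neither passed the test. Lgmn, Arsa, Naglu, Glb1 and Sgsh held 1 copy each in the stretch shown, and these 5 were higher in sham by log2 fold changes of 0.36 to 1.14. The copies of Gla and Gaa lay farther from the start, at 227 and 194 bases for Gla and 140 bases for Gaa. The Lgmn copy belongs to the downstream of 2 listed starts. All these starts are those of RefSeq, and GENCODE M21 places some of them differently. By GENCODE, Naglu begins at 101070012 and Mcoln1 at 3500457. The Naglu and Lgmn stretches and the second Mcoln1 copy therefore lie within the GENCODE gene, and the Sgsh copy spans its edge at 119355536. A match of letters is not a bound site.

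Further genes of the lysosome were taken in 4 lists. Of 25 further hydrolases and lysosomal transporters 12 were higher and 0 lower in sham (48.0% higher, against 17.2% of all tested genes), with a median log2 fold change of 0.31. Acid phosphatase 5 (Acp5), an enzyme of macrophages and osteoclasts, was at 7.96 ± 1.56 CPM in sham and 0.818 ± 0.416 CPM in naive libraries, a log2 fold change of 3.30 ± 0.29. The carboxypeptidase relative Scpep1 rose by 1.01 ± 0.11, the phospholipase Pla2g15 by 0.80 ± 0.10 and the acid nuclease Dnase2a by 0.73 ± 0.11. Of 16 tested proton pump genes, Atp6v1a, Atp6v0e and Atp6ap2 were higher, by 0.58 ± 0.13, 0.50 ± 0.14 and 0.56 ± 0.20, and 13 did not pass (18.8% higher, near the 17.2% of all tested genes, median -0.01). Of 20 genes that sort proteins to the lysosome 1 was higher and 1 lower. Nagpa, which uncovers the mannose 6-phosphate tag, rose by 0.35 ± 0.09, and the sorting receptor Sort1 changed by -0.40 ± 0.09.

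Among autophagy and nutrient sensing genes 8 of 22 were lower (36.4%, against 15.5% of all tested genes), 1 was higher and 13 did not pass, with a median of -0.20. The autophagy vesicle protein Atg9a fell to 60.2 ± 4.34 CPM in sham, against 79.8 ± 4.60 CPM in naive libraries (-0.41 ± 0.08, edgeR adjusted p = 8.11e-04). Folliculin (Flcn), which controls TFEB and TFE3 through Rag GTPases, changed by -0.36 ± 0.07 and the GTPase Rragd by -0.60 ± 0.12. The 1 higher gene was Tfe3. Cardiomyocyte markers, 9 of 10 of which were lower in the same libraries, had a median of -0.39, and their part in these values was not tested. With library size alone 37 of the further lysosomal genes of these 4 lists were higher and 0 lower, against 17 and 9 with TMM factors. That scaling moved all tested genes the same way, to 4473 higher and 283 lower, against 2342 and 2113 with TMM factors.

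**Figure D4:**
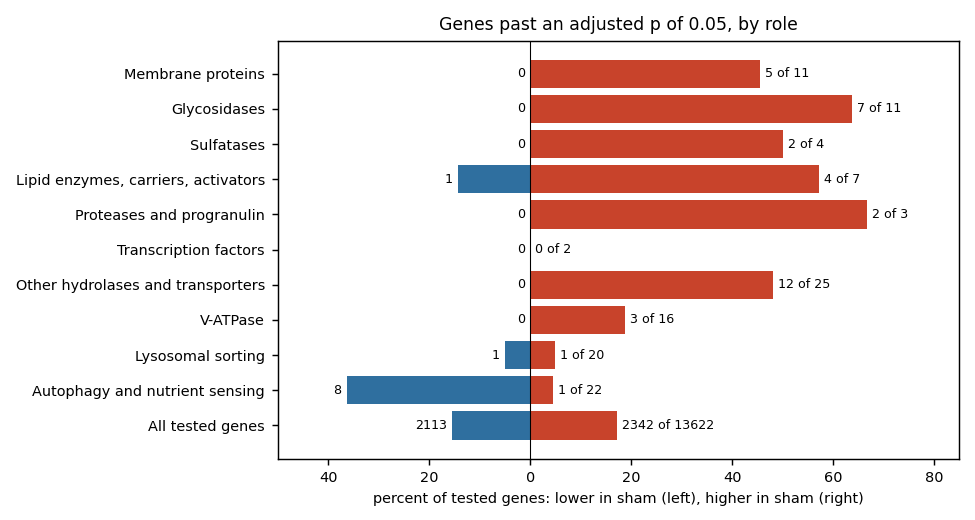
Percent of tested genes past an adjusted p of 0.05 that were higher (right) or lower (left) in sham, for each role and for all tested genes, with the counts printed. The glycosidases at 7 of 11 and the further hydrolases at 12 of 25 stand right of the 17.2% of all genes, and autophagy genes reach 36.4% on the left.

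Levels within the set spanned several orders of magnitude. Per kilobase of exon, a scale that counts exons of all annotated isoforms and so understates genes with long rare ones, Psap had 677 CPM in sham and 663 CPM in naive libraries, followed by Lamp1 at 201 and 188 CPM. The third most abundant was Grn at 86.4 CPM in sham ventricles and Smpd1 at 106 CPM in naive ventricles. Gpnmb had 5.70 CPM per kilobase in sham, rank 28 of 39, and 0.430 in naive libraries, rank 38. Together the 39 genes took 0.512% to 0.584% of all counts in sham and 0.385% to 0.425% in naive libraries, a range in which the groups do not overlap. These are shares of raw library totals, without TMM scaling. As TMM-normalised CPM the 39 genes summed to 4924 to 5229.6 in sham and 4329 to 4711 in naive libraries, a smaller difference.

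Sham 1 had the lowest sham value in 11 of the 20 higher genes, and that share was not counted over all higher genes. On the first principal component sham 1 scored -24.6, the other sham libraries -36.6 to -40.9 and the naive libraries 30.5 to 40.3. Summed macrophage, neutrophil, atrial and smooth muscle markers were also lowest in sham 1 among sham libraries. Those of cardiomyocytes, fibroblasts, endothelium and lymphocytes were lowest in other sham libraries. Without sham 1, 19 of the lysosomal genes were higher and 1 lower. Within the naive group 9 genes, among them Lamp2, Npc1, Manba and Ppt1, were lowest in naive 1 and highest in naive 5. Lamp2 was at 21.1 CPM in naive 1 and 47.4 CPM in naive 5, a spread wider than its difference between the groups. Another 13 genes, among them Lamp1, Gaa and Tfeb, were highest in naive 1. On the second principal component of all tested genes naive 1 scored 38.7 and naive 5 scored -28.0. Sham 1 scored 16.4 and sham 5 scored -9.52 on it, and the part of this component in the values was not tested. In the same comparison 14 of 15 macrophage markers and 6 of 8 fibroblast markers were higher in sham. Among sham libraries the summed CPM of the 39 genes was lowest in sham 4, and that of the macrophage markers in sham 1. The 2 tested neutrophil markers were higher as well, S100a9 on few counts and with overlapping groups. The part of any of these cell types in the increases was not tested.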

How the data were processed

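Poly(A) RNA of 5 sham and 5 naive ventricles was sequenced from one end without strand information, as the labels' protocols state. The deposited counts are whole numbers for each gene on GRCm38 and were not normalised by the authors; the build is given by the submitters' processing notes. The same notes name Bowtie2, TopHat2 2.1.1, HTSeq, DESeq and edgeR with no roles. The sources used here give neither annotation release nor counting mode. The deposited table also lists each gene's GC content in percent, used only for the GC correction. Of its 41264 rows, 574 repeated an identifier and its counts and were dropped, which left 40690 genes.

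After the filter on low counts (filterByExpr of edgeR 4.0.16, at least 10 counts and 15 in all) 13622 genes were scaled with TMM. They were tested with edgeR's robust quasi-likelihood fit on group alone, and p-values were adjusted by Benjamini and Hochberg's method over all of them. Each SE was derived from the F statistic and the log2 fold change. Groups came from the sample titles. The labels do not describe housing or surgery days, and p-values reflect only how far these samples spread. No pair of libraries within a group was close enough to be 1 library (smallest chi-square per degree of freedom 10.1). Count floors cover counting error only. Gene coordinates and exon lengths are from GENCODE M21 on GRCm38, and promoter windows from RefSeq on GRCm38.p6.

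The 39 genes and all lists were chosen with earlier results of these data known. All 39 are named, with up to 4 genes of smallest p from each other list of the pathway. The test was tried on simulated counts, with known changes given to genes drawn from all tested genes. It recovered 64.1% of 1.5-fold, 75% of 2-fold and 100% of 4-fold increases. Of decreases to 0.667-fold it recovered 53.8%, and of those to 0.5-fold 64.7%. Of its 147 calls 9 were false. The data gave 4455 calls, so the limit on unadjusted p was stricter in the simulation, and these rates may not hold for the data. The 17 lysosomal genes that did not pass had fitted log2 fold changes of -0.25 to 0.28. Such a gene may still have changed. Alternatives were DESeq2 1.42.0, limma 3.58.1 (voom), other scalings and filters, removal of abundant or mitochondrial genes, a loess GC correction, the replicate number as a block, and each library left out, in R 4.3.3.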

Additional observations from a re-analysis of the deposited data

Results flagged for a closer look

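Each of the 39 genes was examined in the 5 sham and the 5 naive libraries for a library far from the others, by Dixon's ratio of the gap to the range (above 0.71 for 5 samples). Of 78 groups 3 passed, and chance alone gives about 1 in 20. Gaa was at 435 CPM in sham 1, where the other sham libraries were at 351 to 369 CPM (ratio 0.779). Smpd1 was at 305 CPM in sham 1, with the others at 254 to 268 CPM (ratio 0.723). Arsa was at 35.2 CPM in naive 1, with the others at 27.4 to 29.5 CPM (ratio 0.727).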

How the results depend on the processing

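Of 24 alternatives, 14 kept all 21 calls among the lysosomal genes. The other 10 each lost 1 call, which was Smpd1 with library size alone and Glb1 in the remaining 9. The 20 higher calls became 19 to 25, and the median log2 fold change of 0.36 stayed positive throughout. It was 0.63 with library size alone, 0.39 without the filter, 0.33 with the GC correction, 0.43 without naive 1 and sham 4, and 0.33 to 0.42 with 1 library left out. In place of 1 lower gene, 4 genes were lower with limma voom (Gaa, Tfeb and Mitf added) and 4 with the GC correction (Gaa, Idua and Tfeb added), 0 with library size alone, and 1 to 2 with 1 library left out. Among the further lysosomal genes, 17 higher and 9 lower by the main test, 16 were lower with limma voom, 37 were higher and 0 lower with library size alone, and 5 to 10 were lower with 1 library left out, the fewest without sham 5. Over all genes 3243 were lower with limma voom, and 4473 were higher and 283 lower with library size alone.

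Genes that changed sign passed under neither setting. With library size alone the log2 fold changes were 0.12 for Scarb2, 0.19 for Mcoln1, 0.12 for Npc1, 0.093 for Gaa, 0.049 for Idua, 0.097 for Manba, 0.22 for Neu1, 0.061 for Ids, 0.027 for Tfeb and 0.036 for Mitf. Psap was at -0.035 with the GC correction, Laptm4a at -0.054 with limma voom, and Ppt1 at -0.042 without naive 1 and sham 4. With 1 library left out Laptm4a ran from -0.032 to 0.065 and Ppt1 from -0.076 to 0.15. The cause of these shifts was not tested.

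The replicate numbers were shared by the groups, and the labels state no pairing. Deviations of libraries with the same number correlated at 0.23, 0.04, 0.01, 0.29 and 0.29, and sham 1, 4 and 5 correlated best with their own number. Scores on the second principal component fell with the number in naive 1 to 5 (38.7, 11.9, 3.93, -26.5 and -28.0). In sham 1 to 5 they were 16.4, 4.96, 2.89, -14.7 and -9.52. The main fit was on group alone and did not take the numbers to pair the mice. With the number as a replicate block 20 lysosomal genes were higher and 3 lower, with Tfeb (-0.23, edgeR adjusted p = 0.0405) and Mitf (-0.24, edgeR adjusted p = 0.0289) added to Smpd1, and over all genes 2592 were higher and 2801 lower. With block and GC correction together 23 were higher (Lamp2, Arsb and Tpp1 added) and 5 lower (Gaa, Idua, Tfeb and Mitf added), with a median of 0.32, and Psap was at -0.035. Depth limits Tfec most, and Gla next, with 5 to 36 counts in the naive libraries.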
